A study of Fragaria x ananassa with 3 samples.

Results

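The degradome library was made from strawberry fruit of both storage times, 0 h and 24 h, mixed together, and the 111 cleavage sites described here are all of the sites listed for it. A site was a distinct pair of target gene and cleavage position, and the 152 listed pairs of a miRNA name and a site were collapsed to these 111 sites on 103 genes without any selection by peak category or p-value. The sites were listed for 75 miRNA names with 74 sequences, of which 38 were known names of 19 families and 37 were names starting with PC, the new candidates of the study.

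The study had 3 libraries of 1 sample each, namely this degradome library, a small RNA library of fruit stored for 24 h and a small RNA library of fruit at 0 h. All fruit was of the cultivated strawberry Fragaria x ananassa cv. Zhangji, picked at commercial maturity without injury or infection and kept at 20 °C and about 85% relative humidity. The question put to the degradome was which transcripts were cut under the direction of the miRNAs found in the same fruit. Since both storage times went into 1 library, no site could be assigned to a time, and there was no biological replicate. A list of cleavage sites holds no expression levels, so the fruit tissue could not be checked against marker genes.

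In plants, a miRNA guides an ARGONAUTE protein to a transcript with nearly full complementarity, and the protein cuts the transcript opposite bases 10 and 11 of the miRNA. The downstream fragment keeps its poly(A) tail and carries an uncapped 5′ end, and degradome sequencing reads these 5′ ends, so that a guided cut appears as reads starting opposite base 10. Many conserved plant miRNAs act on transcription factor transcripts, among them factors of auxin response, organ boundaries and senescence, and miR168 acts on the transcript of ARGONAUTE1 itself.

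The mature sequences that the strongest sites rest on are given 5′ to 3′ in the DNA letters of the small RNA table, T standing for U. Capitals mark the seed, which is bases 2 to 8, and the bases 10 and 11 between which the cut is expected. The first set holds names of 7 of the 10 sites with most reads, with the miR164, miR168, miR160, miR7125 and miR167 families.
mdm-miR164e: tGGAGAAGcAGggcacgtgca
mdm-miR164d_1ss21AC: tGGAGAAGcAGggcacgtgcc
ptc-miR164f_1ss21TA: tGGAGAAGcAGggcacatgca
mdm-miR168b: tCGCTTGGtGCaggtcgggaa
mdm-miR160a: tGCCTGGCtCCctgtatgcca
mdm-miR7125_1ss1CT: tGAACTTAtTGcaactagctt
mdm-miR167b_R+1_1ss21AC: tGAAGCTGcCAgcatgatctca
The 3 miR164 names shared 1 seed and were listed together at each of their 3 sites, and mdm-miR160e had the same 21 bases as mdm-miR160a. A name ending in a term such as 1ss21AC differed from the reference miRNA at 1 base, and L+1 or R+1 stood for 1 extra base at the 5′ or the 3′ end.

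The second set holds pairs of names whose 5′ ends were offset, because these pairs gave neighbouring sites on the same transcript.
mdm-miR172g_R+1: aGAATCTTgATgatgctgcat
mdm-miR172g_L+1: gAGAATCTtGAtgatgctgca
mdm-miR156b: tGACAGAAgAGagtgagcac
mdm-miR156a_L+1: tTGACAGAaGAgagtgagcac
PC-3p-140510_25: aCGGTGGAgATggacggatgc
PC-3p-29513_122: aTGGACGGtGGagatggacggatg
The second name of each pair carried 1, 1 and 4 extra bases at its 5′ end and matched the first over 20 bases with 0 mismatches. Bases 10 and 11 therefore fell 1, 1 and 4 positions earlier in the shared stretch. Their seeds also differed, since an extra 5′ base moves the seed window.

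Few sites held most of the reads. The reads at the 111 sites summed to 645.667, with fractions at 21 sites, and 410 of them (63.5%) lay at 10 sites. The median site had 1 read and the range was 0.125 to 110 reads. At least 2 reads were found at 50 sites (45.0%, exact binomial interval of 35.6 to 54.8%), exactly 1 read at 40 sites and less than 1 read at 17 sites. The list covers sites paired with a miRNA alone, so its sum is not the depth of the library. Levels of the target transcripts were not measured, so reads at sites of different genes do not compare how strongly they were cut. All intervals are at 95% and cover counting error only, and reads from PCR without molecular identifiers are not independent molecules.

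The 3 sites of miR164 held 156 reads, 24.2% of all site reads. In Arabidopsis miR164 cuts transcripts of NAC factors, the family of CUP-SHAPED COTYLEDON and ORESARA1 that acts in organ boundaries and leaf senescence. Positions are counted along the Fragaria vesca transcript models that the authors used. Position 718 of gene00971-v1.0-hybrid, annotated as a NAC domain transcriptional regulator, had 110 reads (Poisson interval 90.4 to 133) at an alignment score of 3. The score is a penalty of 1 for a mismatch or bulge and of 0.5 for a G:U pair, doubled at bases 2 to 13, so that 0 is full pairing. Position 661 of gene26043-v1.0-hybrid, NAC domain containing protein 38, had 42 reads (30.3 to 56.8) at a score of 2.5. Position 664 of gene04424-v1.0-hybrid, NAC domain containing protein 87, had 4 reads at the same lowest score of 2.5. The lowest score thus did not order these 3 sites, and the Poisson intervals of the first and the second site did not overlap. Levels of the 3 transcripts were not measured.

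Position 463 of gene09291-v1.0-hybrid had 72 reads (56.3 to 90.7) at a score of 1 for mdm-miR168b. Its annotation, a stabilizer of iron transporter SufD and polynucleotidyl transferase, is the description that Arabidopsis databases also attach to ARGONAUTE1. A gene with the next number and the same annotation, gene09290-v1.0-hybrid, had a miR168 site at position 349 with 1 read at a score of 3.5. The 2 genes set by rule beside them as targets of miR162, which acts on the transcript of DICER-LIKE1 in Arabidopsis, had 1 read each, gene18596-v1.0-hybrid annotated as a tubulin-tyrosine ligase and gene31988-v1.0-hybrid without annotation. Of these 4 silencing sites 1 had at least 2 reads, and their median was 1 read, as over all 111 sites.

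Auxin response factors, which bind auxin-regulated promoters, carried 3 of the 10 sites with most reads. Position 1865 of gene09733-v1.0-hybrid, auxin response factor 16, had 28 reads (18.6 to 40.5) at a score of 0.5 for miR160. Position 1967 of gene16844-v1.0-hybrid, also annotated as auxin response factor 16, had 14 reads (7.65 to 23.5) at a score of 1. Position 2618 of gene30394-v1.0-hybrid, auxin response factor 8, had 17 reads (9.90 to 27.2) at a score of 4 for miR167, a family that cuts ARF6 and ARF8 transcripts in Arabidopsis. The intervals of all 3 sites overlapped. The other 3 miR160 sites were on genes without annotation, with 12 reads at position 1328 of gene23280-v1.0-hybrid, 8 at position 281 of gene16031-v1.0-hybrid and 8 at position 92 of gene16057-v1.0-hybrid. Scores of all 5 miR160 sites were 0.5 or 1, and together they held 70 reads.

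The remaining sites among the 10 with most reads had other annotations or none. Position 141 of gene19971-v1.0-hybrid, without annotation, had 57 reads (43.2 to 73.9) and the only score of 0 in the list, for mdm-miR7125_1ss1CT. Position 1537 of gene23876-v1.0-hybrid, an ARM repeat protein, had 28 reads (18.6 to 40.5) at a lowest score of 2 for 3 miR172 names. Position 682 of gene15384-v1.0-hybrid, without annotation, had 21 reads (13 to 32.1) at a score of 4 for miR1511. Position 737 of gene31576-v1.0-hybrid, a cation efflux protein, had 21 reads at a score of 3 for a miR1510 name. All 10 sites had a known name and category 0, which means the single highest position of the transcript with more than 1 raw read, and their scores covered the whole listed span of 0 to 4 with a median of 2.25.

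**Figure D1:**
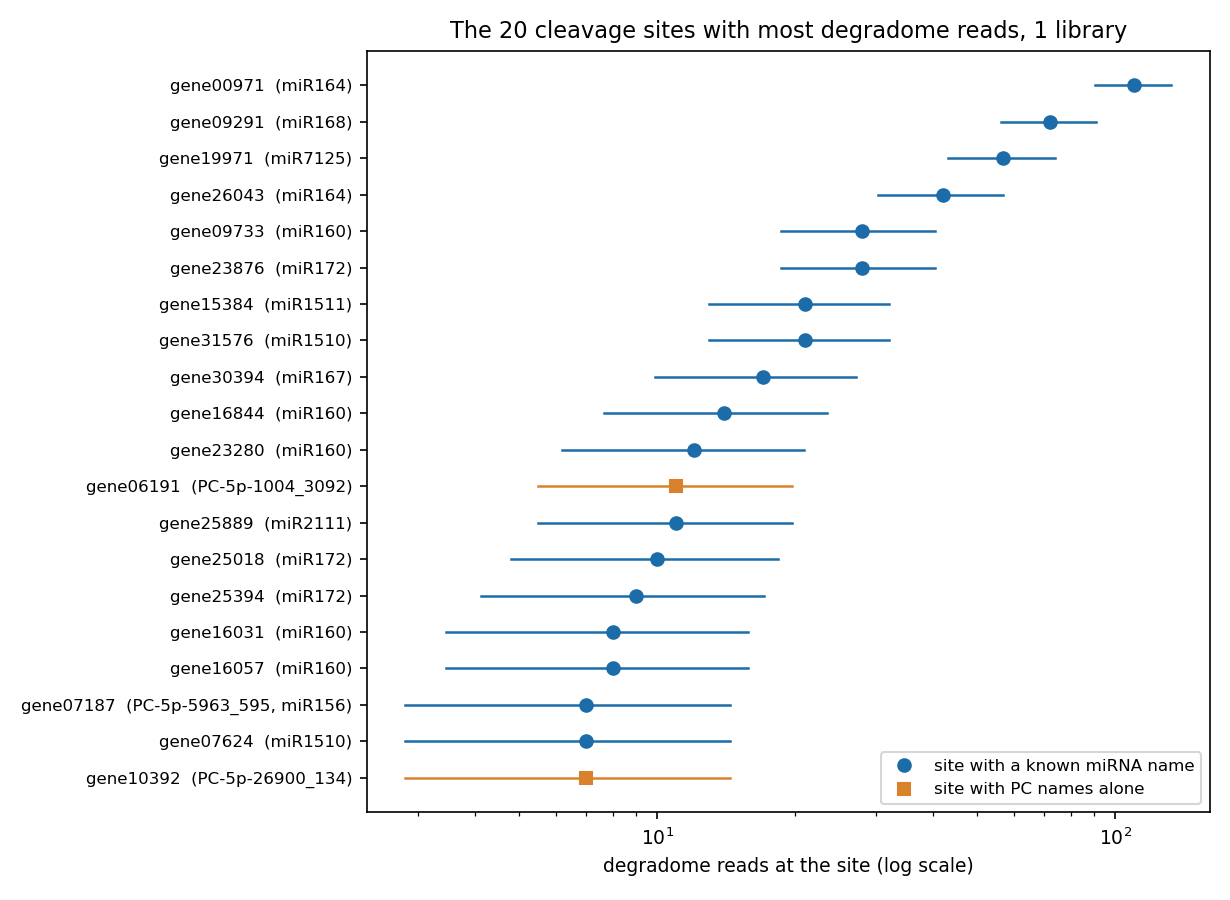
Degradome reads (x axis, log scale) at the 20 sites with most reads, each row 1 site labelled by its target gene and miRNA family or PC name, with 95% Poisson intervals as bars. The first row stands at 110 reads and the last at 7, and 2 of the 20 sites had PC names alone.

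The 2 families most abundant as small RNAs were not those with most site reads. The names with a site of miR156, which cuts SPL transcripts in Arabidopsis, had 3502407 raw small RNA reads in the 24 h and 0 h libraries summed, 72.8% of those of all known names with a site. Their 7 sites on 5 genes held 15 reads. miR166, which cuts transcripts of class III homeodomain-leucine zipper factors, had 953916 raw small RNA reads and 7 reads at its 3 sites. By raw reads these were the first and second of the 19 families, and by site reads the 10th and 13th. In contrast, miR160 had 266 raw reads and 70 site reads, and miR7125 had 168 raw reads and 57 site reads.

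Across the 111 sites, Spearman's rho between the reads of a site and the raw small RNA reads of its most abundant name was 0.26. The points share 1 degradome library, sites of 1 name share its small RNA value, and levels of the target transcripts were not measured. No site was listed for 12 of the 31 known families in the small RNA data, among them miR2911 with 62528 raw reads and miR408 with 12256. The 5 families with most site reads, miR164, miR168, miR160, miR172 and miR7125, held 413 reads (64.0%).

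**Figure D2:**
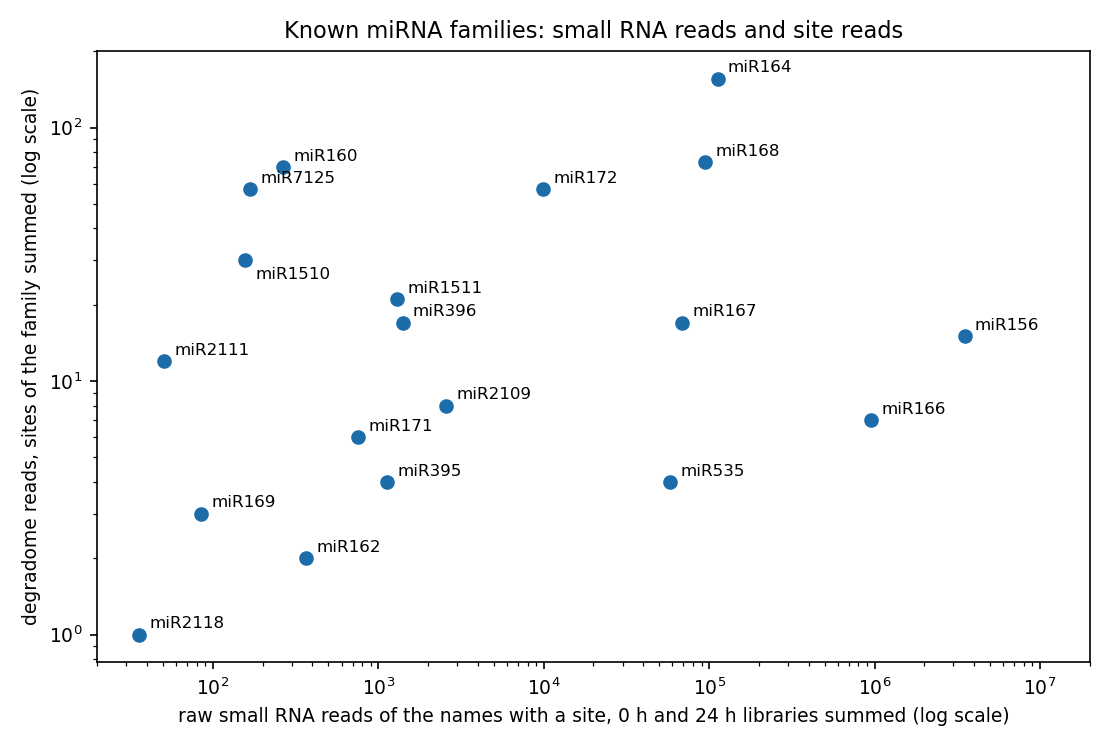
Degradome reads summed over the sites of each of 19 known families (y axis, log scale) against the raw small RNA reads of its names with a site, both small RNA libraries summed (x axis, log scale). miR156 lies farthest to the right at 3502407 small RNA reads with 15 site reads, while miR164 lies highest with 156 site reads. miR160 is drawn at 266 small RNA reads, which counts the 133 reads of 1 sequence under both of its names.

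The annotations of the other conserved families were partly those known from other plants. All 3 miR166 sites were on genes annotated as homeobox-leucine zipper proteins with a START domain, with 4 reads at gene21561-v1.0-hybrid and 1.5 each at gene08999-v1.0-hybrid and gene25646-v1.0-hybrid. miR396, which cuts growth-regulating factor transcripts in Arabidopsis, had 3 of its 7 sites on such genes, with 6 reads on gene13517-v1.0-hybrid (growth-regulating factor 5), 2 on gene12741-v1.0-hybrid (factor 1) and 1 on gene05636-v1.0-hybrid (factor 2). miR2109, a legume family known for disease resistance transcripts, had sites with 2 and 1 reads on the resistance genes gene20655-v1.0-hybrid and gene34180-v1.0-hybrid. Its 2 further sites were on gene29744-v1.0-hybrid without annotation, with 3 reads, and on the actin-binding gene24446-v1.0-hybrid, with 2 reads.

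For other families the annotation was missing or did not name a target known from other plants. A missing or general annotation does not show that a gene is not such a target, and this was not tested. Of the 5 genes with a miR156 site, 4 had no annotation and gene17434-v1.0-hybrid was annotated as a transposable element gene, with 2 reads. miR171, known for GRAS factors in Arabidopsis, had 2 sites on gene03956-v1.0-hybrid, an AT hook protein, and 1 on gene31749-v1.0-hybrid without annotation, with 3, 1 and 2 reads. miR395, known for sulfate assimilation transcripts, had 1 site with 4 reads on gene29029-v1.0-hybrid. Its annotation was the general one of a pseudouridine synthase/archaeosine transglycosylase-like family protein. miR535 was listed with 4 reads on gene13004-v1.0-hybrid, hydroxymethylglutaryl-CoA reductase 1, an enzyme of the mevalonate pathway.

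By annotation, the 18 sites on transcription regulators (15 genes) held 248 reads, 38.4% of the total, and 12 of them had at least 2 reads, with a median of 3.5 reads. Over all 111 sites 50 had at least 2 reads and the median was 1 read. However, 17 of the 18 had a known name, and 36 of the 61 sites with a known name (59.0%) had at least 2 reads. The 6 cell wall and sugar sites held 18 reads with a median of 1.5, led by gene06191-v1.0-hybrid, glycosyl hydrolase 9B1, with 11 reads. In that list the arabinose kinase gene08751-v1.0-hybrid and the trehalose-phosphatase/synthase gene29717-v1.0-hybrid had 2 reads each, and the pectin lyase-like gene00558-v1.0-hybrid, the fructose-2,6-bisphosphatase gene07946-v1.0-hybrid and the beta-galactosidase gene12626-v1.0-hybrid had 1 read each. The 5 signalling sites were led by the kinase gene25018-v1.0-hybrid with 10 reads and the ABA-induced phosphatase gene26316-v1.0-hybrid with 5 reads. The 53 sites without annotation, given as unknown, held 200.708 reads, 31.1% of the total, and 20 of them had at least 2 reads.

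Reads per site and pairing were compared over 3 ranges of the lowest score of a site. Of 23 sites with a score up to 2, 13 had at least 2 reads (56.5%, 34.5 to 76.8%), and their median was 2 reads. Of 27 sites at 2.5 to 3, 13 did (48.1%, 28.7 to 68.1%), with a median of 1.5 reads. Of 61 sites at 3.5 to 4, 24 did (39.3%, 27.1 to 52.7%), with a median of 1 read. Over all sites the shares became lower from range to range, and all 3 intervals overlapped. This order was found in neither kind of site taken alone. The shares were 65.0, 70.6 and 45.8% for sites with a known name. For sites with PC names alone they were 0, 10 and 35.1%. Sites with PC names alone made up 3 of the 23, 10 of the 27 and 37 of the 61 sites.

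Each score range held part of the reads. The 3 score ranges held 261.25, 226.6 and 157.817 reads, which were 40.5, 35.1 and 24.4% of the total. Spearman's rho between reads and score was -0.28 over the 111 sites, -0.29 over the 61 sites with a known name and 0.11 over the 50 sites with PC names alone, so that all 3 values were weak and their signs differed. With the highest score of each site in place of the lowest, rho over the 111 sites was -0.15. Several sites of 1 miRNA enter these values, and sites are not replicates.

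Close pairing did not always come with many reads. Of the 11 sites with a score of 1 or lower, 9 had at least 2 reads and the median was 8 reads. The 2 exceptions with 1 read were position 1137 of gene26117-v1.0-hybrid for miR156 and position 1196 of gene03956-v1.0-hybrid for mdm-MIR171f-p3, both at a score of 1. At the other end, 16 of the 45 sites with a score of 4 had at least 2 reads (35.6%, 21.9 to 51.2%), and the highest of them was the miR1511 site of gene15384-v1.0-hybrid with 21 reads.

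**Figure D3:**
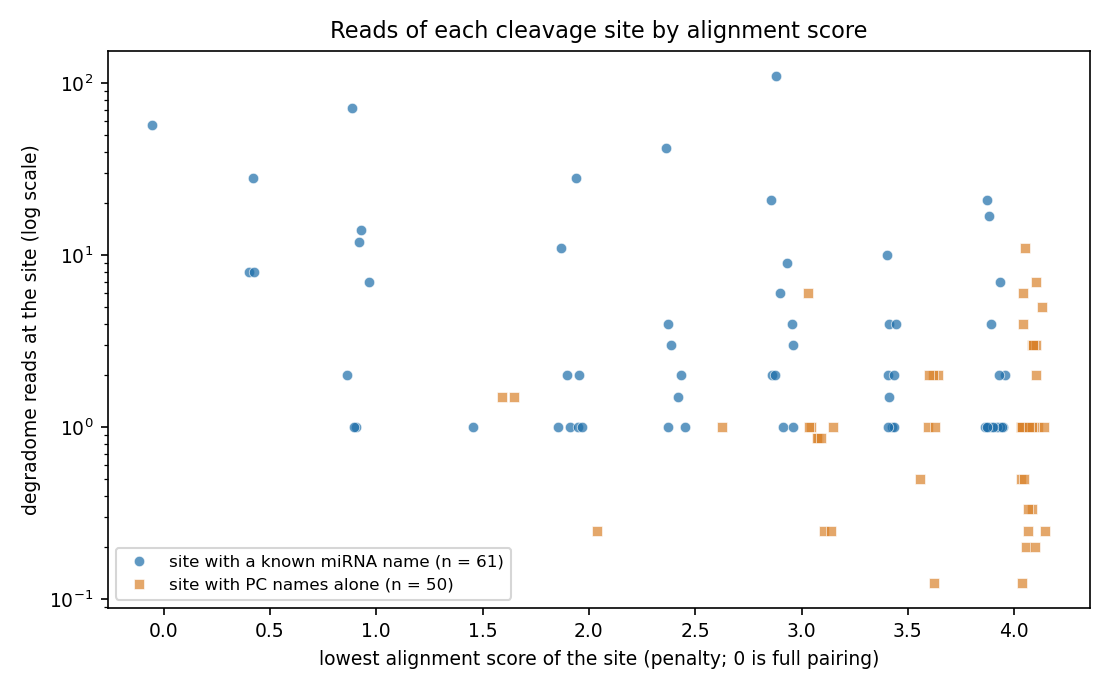
Reads of each of the 111 sites (y axis, log scale) against its lowest alignment score (x axis, penalty), with sites of a known name as circles and sites of PC names alone as squares, shifted sideways within a score so that points show. The 3 squares at scores up to 2 lie between 0.25 and 1.5 reads, and the 20 circles there lie between 1 and 72 reads.

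Nearly all sites lay where a guided cut is expected, a position that the target search itself looks for. Of 110 sites with a readable paired range, 102 were opposite base 10 of at least 1 of their names (92.7%, 86.2 to 96.8%). The base was counted from the 3′ end of the paired range on the transcript, so a gap in the pairing can shift the count. Among the 151 pairs of a name and a site, 139 were opposite base 10, 3 opposite base 9 and 9 opposite base 11. The pairs counted off base 10 were all among those in which the paired range of the transcript and the miRNA differed in length. All 118 pairs of equal length were at base 10, the 3 pairs at base 9 were among the 18 whose range was 1 base shorter, and the 9 pairs at base 11 were among the 15 whose range was 1 base longer.

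Of the sites counted off base 10 with at least 5 reads, gene15384-v1.0-hybrid (21 reads) was at base 9 of the miR1511 name. The site of gene30394-v1.0-hybrid, auxin response factor 8 (17 reads), was counted at base 11 of the miR167 name. The growth-regulating factor 5 site of gene13517-v1.0-hybrid, at position 344 with 6 reads, was counted at base 11 of both its miR396 names. In each of these pairs the paired range and the miRNA differed in length by 1 base. The target search places each site opposite base 10 of its name, so the count does not show cuts off base 10.
mdm-miR1511_R-1_1ss20AT: aCCTAGCTcTGataccatgt
mdm-miR396b: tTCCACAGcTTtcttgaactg
mdm-miR396e: tTCCACAGcTTtcttgaactt
All 3 growth-regulating factor sites were counted at base 11 with a range 1 base longer than the miRNA. In Arabidopsis the pairing of miR396 with growth-regulating factor transcripts is known to contain a bulged base.

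A site was often shared by several names. There were 21 sites with 2 or more names (18.9%, 12.1 to 27.5%), of which 17 had known names alone, 3 had known and PC names and 1, position 255 of gene24343-v1.0-hybrid, had PC names alone. No site joined names of different known families among the 20 shared sites with a known name. The scores of the names differed at 16 of the 21 sites, by up to 3. At least 2 reads were found at 15 of the 21 shared sites (71.4%, 47.8 to 88.7%) and at 35 of the 90 sites with 1 name (38.9%, 28.8 to 49.7%), with medians of 6 reads and 1 read. However, 20 of the 21 shared sites had a known name. Of all 61 sites with a known name, 36 had at least 2 reads (59.0%, 45.7 to 71.4%). At 5 of the shared sites, all of miR160, the names had 1 identical sequence. Of the 16 sites with several distinct sequences, 10 had at least 2 reads (62.5%, 35.4 to 84.8%), and their median was 3 reads.

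The most names, 8 each, were listed at position 1153 of gene07187-v1.0-hybrid with 2 reads and at position 946 of gene06295-v1.0-hybrid with 1 read, and 4 names at position 1138 of gene26117-v1.0-hybrid with 1 read. The number of names at these miR156 sites was thus not matched by reads. Both sites with 8 names had 6 known and 2 PC names, whose sequences are set here beside a miR156 name of the same sites.
sbi-miR156e_L+1_1ss6AG: tTGACGGAaGAgagcgagcac
PC-5p-280652_13: tTGACGGAaGAgagcgagcat
PC-5p-47125_76: cTGACAGAaGAagagtgagca
PC-5p-280652_13 differed from the sbi-miR156e name at 1 of 21 bases and shared its seed, and PC-5p-47125_76 shared the seed TGACAGA with mdm-miR156a_L+1. Compared without gaps, PC-5p-47125_76 had 8 mismatches over 19 bases to mdm-miR156b and 7 over 18 bases to mdm-miR535d_1ss7CT, the closest known name by that count. Such a count misses a name that differs by a gap. With 1 extra A after base 11 left out, PC-5p-47125_76 matched mdm-miR156a_L+1 at all of its remaining bases but the first. The site with a known and a PC name at position 1152 of gene07187-v1.0-hybrid, with 7 reads, had a score of 1 for mdm-miR156b and of 4 for PC-5p-5963_595. The PC sequence matched mdm-miR535d_1ss7CT, which was not listed at this site, over 20 bases with 0 mismatches at an offset of 1 base.
PC-5p-5963_595: tTGACGATgAGagagagcacg

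On 7 of the 103 genes more than 1 site was listed, 6 with 2 sites and gene03956-v1.0-hybrid with 3. All 7 genes had a pair of sites within 5 nt of each other, and in each of the 7 pairs the names of the closest sequence at the 2 sites were offset at their 5′ ends by exactly the distance between the sites. This follows from the target search, which places each site opposite base 10 of its name, and is not a separate measurement. These closest names had 0 mismatches in 5 of the 7 pairs and at most 4. The single site farther away was position 360 of gene03956-v1.0-hybrid, with 1 read for PC-3p-1812_1740, 833 nt upstream of the next.

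Reads were unequal between neighbouring miR172 sites 1 nt apart. On gene23876-v1.0-hybrid, the site at 1537 had 28 reads and the site at 1538 had 1 read, so that 96.6% of 29 reads (82.2 to 99.9%) lay at the upstream site. On gene25394-v1.0-hybrid, annotated as related to AP2.7, a factor of the APETALA2 family that miR172 acts on in Arabidopsis, 1432 had 9 reads and 1433 had 1 read, or 90.0% of 10 reads (55.5 to 99.7%). On both genes mdm-miR172g_R+1 was among the names at the upstream site, and mdm-miR172g_L+1 was the one name at the downstream site. The score was lower at the upstream site of gene23876-v1.0-hybrid (2 upstream, 3 downstream) but higher at that of gene25394-v1.0-hybrid (3 upstream, 2 downstream), while the most abundant name at the site had 8024 raw small RNA reads upstream and 172 downstream on both genes.

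For miR156 the reads were too few to place the cut. On gene07187-v1.0-hybrid the site at 1152 had 7 reads and that at 1153 had 2 reads, and the interval of the upstream share, 77.8% of 9 reads (40.0 to 97.2%), included an even split. On gene26117-v1.0-hybrid 1137 and 1138 had 1 read each. The site of the shorter mdm-miR156b (1018224 raw reads for its most abundant name) thus had at least as many reads on both genes as the site of the names with 1 extra 5′ base (2013172).

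The pairs 3 or 4 nt apart had few reads. On gene03956-v1.0-hybrid, 1193 had 3 reads for mdm-miR171a at a score of 2.5 and 1196 had 1 read for mdm-MIR171f-p3 at a score of 1. On gene23708-v1.0-hybrid, Target of Myb protein 1, 1405 and 1409 had 1 read each for PC-3p-140510_25 and PC-3p-29513_122. On gene12489-v1.0-hybrid, without annotation, 101 had 1 read for PC-3p-771044_5 and 104 had 0.5 reads for PC-3p-189804_19. Over the 7 pairs the upstream site had the most reads in 5 and the same number in 2.

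**Figure D4:**
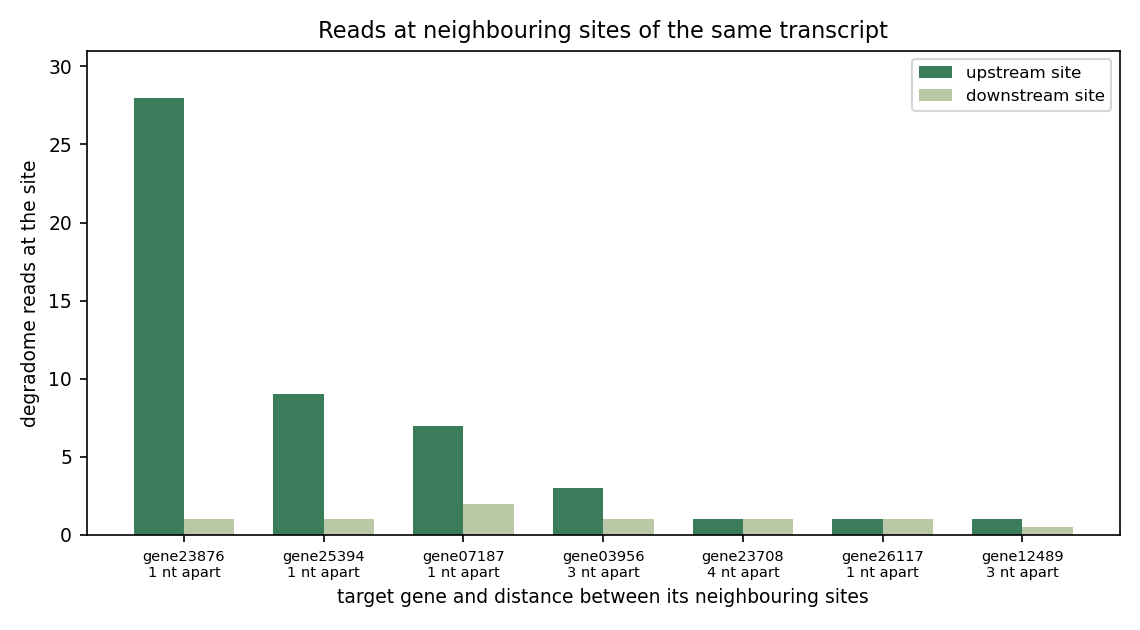
Degradome reads (y axis) at the upstream and the downstream site of the 7 pairs of sites within 5 nt on the same transcript, ordered by their summed reads. The upstream bar is higher in 5 pairs, most of all on gene23876 with 28 against 1 read, and the bars are equal in 2.

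The 61 sites with a known name and the 50 sites with PC names alone differed in reads. Sites with a known name had a median of 2 reads (range 1 to 110) and sites with PC names alone a median of 1 read (0.125 to 11). At least 2 reads were found at 36 of 61 sites with a known name (59.0%, 45.7 to 71.4%) and at 14 of 50 with PC names alone (28.0%, 16.2 to 42.5%). These 2 intervals did not overlap, but no site with a fraction of a read reached 2 reads, and such sites were mostly of PC names. Among the sites with whole reads alone, at least 2 reads were found at 36 of 59 with a known name (61.0%, 47.4 to 73.5%) and at 14 of 31 with PC names alone (45.2%, 27.3 to 64.0%), and these intervals overlapped. Sites with a known name held 560 reads (86.7%) and sites with PC names alone 85.667 reads (13.3%).

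The 2 kinds of site were also spread differently over the scores. A score of 4 was found at 15 of 61 sites with a known name (24.6%) and at 30 of 50 with PC names alone (60.0%). At scores of 3.5 to 4, at least 2 reads were found at 11 of 24 sites with a known name (45.8%, 25.6 to 67.2%) and at 13 of 37 with PC names alone (35.1%, 20.2 to 52.5%), so the intervals overlapped there. At 2.5 to 3 the counts were 12 of 17 with a known name (70.6%, 44.0 to 89.7%) and 1 of 10 with PC names alone (10%, 0.253 to 44.5%). Up to a score of 2 they were 13 of 20 with a known name (65.0%, 40.8 to 84.6%) and 0 of 3 with PC names alone, which allows a share of up to 70.8%. Fractional reads were given for all 3 of these PC sites, for 5 of the 10 at 2.5 to 3 and for 11 of the 37 at 3.5 to 4, and none of those sites reached 2 reads. Whether the gap between the kinds of name differed between the score ranges was not tested.

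In height within their transcripts, 25 of 61 sites with a known name (41.0%) and 5 of 50 with PC names alone (10%) were the single highest position, category 0. A single raw read, category 4, was given for 23 of 61 (37.7%) and for 30 of 50 (60.0%). The categories are defined in part by raw reads, so these shares are not separate from the reads compared above. An annotation was missing at 23 of 61 sites with a known name (37.7%) and at 30 of 50 with PC names alone (60.0%).

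**Figure D5:**
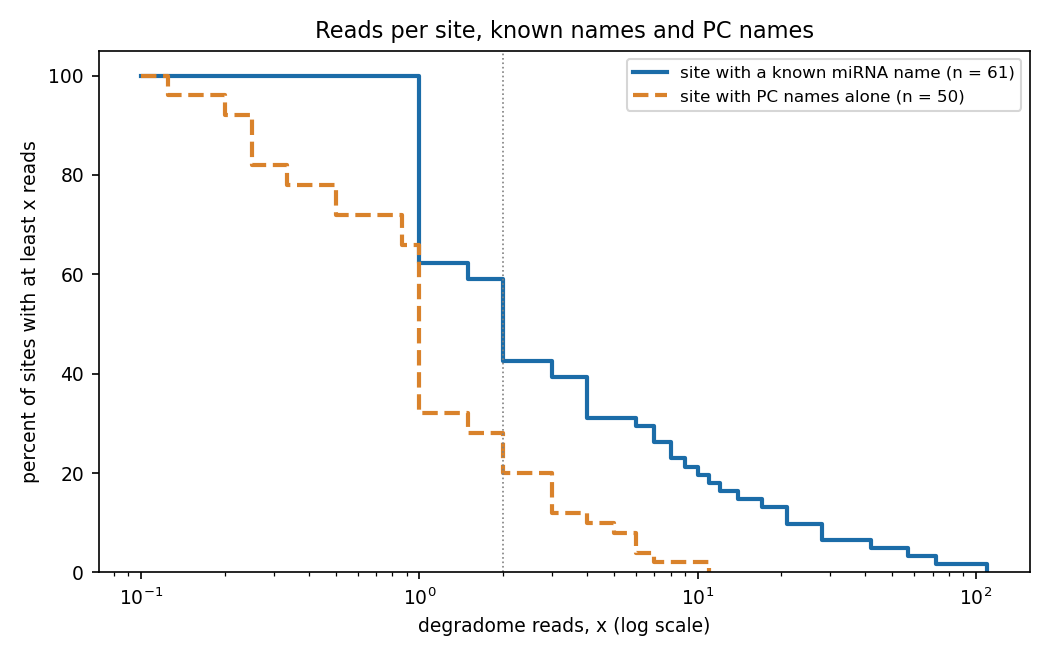
Percent of sites with at least x degradome reads (y axis) against x (log scale), for the 61 sites with a known name as a solid line and the 50 sites with PC names alone as a dashed line, with a dotted line at 2 reads. At 2 reads the solid line stands at 59.0% and the dashed line at 28.0%.

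The 5 sites of PC names alone with most reads were all below the highest position of their transcripts (category 2). Position 706 of gene06191-v1.0-hybrid, the glycosyl hydrolase of the family 9 that holds plant endoglucanases, had 11 reads (5.49 to 19.7) at a score of 4 for PC-5p-1004_3092. Position 22 of gene10392-v1.0-hybrid had 7 reads, position 604 of gene06286-v1.0-hybrid and position 341 of gene14343-v1.0-hybrid had 6 reads each, and position 1188 of gene26316-v1.0-hybrid had 5 reads. Of these the first 3 and the last had a score of 4, and gene14343-v1.0-hybrid a score of 3.
PC-5p-1004_3092: tGTCGCAGtAGagatggcacg
This sequence differed at 2 of 21 bases from vvi-miR3627-5p_L-1_1ss16CT, a known name of the small RNA table for which no site was listed. In all, 3 of the 37 PC names with a site came within 2 mismatches of a known name when compared without gaps.

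Fractions of a read were mostly a feature of PC names. They occurred at 2 of 61 sites with a known name (3.28%, 0.40 to 11.3%) and at 19 of 50 with PC names alone (38.0%, 24.7 to 52.8%), summing to 12.667 reads at 21 sites. The fractional sites of some names added up to whole reads, and those of other names did not. PC-3p-59987_60 had 4 sites of 0.25 reads that summed to 1, PC-5p-931_3343 had sites of 1.5 reads on gene34668-v1.0-hybrid and gene34672-v1.0-hybrid that summed to 3, and the 5 fractional sites of PC-3p-1812_1740 also summed to 3. The miR166 sites of gene08999-v1.0-hybrid and gene25646-v1.0-hybrid, 1.5 reads each, were the 2 exceptions with a known name and also summed to 3.
PC-3p-59987_60: aGATGGACgGGtgcgcggcat
PC-5p-931_3343: tTACCCTTgCAatatccgttg
PC-3p-1812_1740: tCTTTCCTaGTcctgccattcc
PC-3p-1812_1740 was the name with most sites, 8, and the lowest score of PC names alone was the 1.5 of PC-5p-931_3343 at both its sites.

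Having a site at all was more common among known names. A site was listed for 38 of the 85 known names in the small RNA table (44.7%, 33.9 to 55.9%) and for 37 of the 1225 PC names (3.02%, 2.14 to 4.14%). Known names with a site had a median of 441 raw small RNA reads and those without 142, while PC names with a site had a median of 50 and those without 47.5. Among PC names the share differed with length, with 26 of 168 names of 21 nt (15.5%, 10.4 to 21.8%) and 5 of 862 names of 24 nt (0.580%, 0.189 to 1.35%). Most known names, 66 of 85, were of 21 nt, and 25 of those 66 had a site (37.9%, 26.2 to 50.7%). At 21 nt the shares of known and PC names thus lay closer together than over all lengths. Among the names with a site, 26 of 38 known and 16 of 37 PC sequences began with T. The share over all listed names was not computed, so these counts do not set names with a site apart.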

How the data were processed

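Total RNA of postharvest fruit was used for 1 degradome library and 2 small RNA libraries. Adaptor-ligated 5′ ends of poly(A) RNA were sequenced, and the authors mapped them to Fragaria vesca gene models (gene set version 1.0) and searched targets with CleaveLand 3.0 and ACGT301-DGE 1.0. Small RNAs were named with ACGT101-miR 4.2. Since the fruit is of the cultivated species, sites in transcripts that differ from these models can be missing.

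The deposited degradome table gives the read signal at each site with fractions at some, and its column name relates fractions to reads with several places. The authors' alignment score is a pairing penalty, and no site in the table is above 4. The deposited small RNA counts are raw reads per miRNA, summed over both libraries here. The p-values that the authors gave each pair, and their normalized small RNA values, were not used. Category was described and selected nothing.

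Pairs were collapsed to distinct gene and position, taking the lowest score of a site, in Python 3.11.15 with pandas 2.3.3, numpy 2.4.6 and scipy 1.17.1, and plotted with matplotlib 3.10.9. Known means that at least 1 name of a site does not start with PC. Scripts were tested on simulated data. Shares have exact Clopper-Pearson intervals and single sites exact Poisson intervals, both at 95%. With 1 library no test between conditions was possible and no p-value was computed. Sequences are from the small RNA table, and 1 paired range stored as a date was left out of the position share. Sequences closest to a PC name were found without gaps.

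Named sites were the 10 with most reads, all with a score of 1 or lower, genes with several sites, sites with known and PC names, sites off base 10 with at least 5 reads, the 5 PC sites with most reads, the sites with most names, and examples from annotation lists. Members and lists were chosen with earlier results of these data known. PC-3p-59987_60, PC-5p-931_3343, PC-3p-1812_1740 and the families without a site were named after their values were seen.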

Additional observations from a re-analysis of the deposited data

How the results depend on the processing

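Of 59 alternatives for 16 values, 45 stayed within the 95% interval of the value (within 1.5 times for counts and rho), 13 moved it and 1 reversed it. Sites numbered 50 with at least 2 reads and 50 at a score of 3 or lower, against 111. The share of the 10 sites with most reads was 58.2% without the most abundant site, against 63.5%. Spearman's rho of reads and score was 0.11 with PC names alone and -0.15 with the highest score of each site, against -0.28 in all. For PC names alone the share of sites with at least 2 reads was 0% up to a score of 2 (0 of 3 sites) and 10% at 2.5 to 3, where known names gave 70.6%. Sites with several names were 3.60% when counted by family and 30% among sites with at least 2 reads, against 18.9%. The count by family took each PC name as a family of its own, and no site joined different known families. Genes with several sites were 3 after merging sites within 1 nt, 1 within 5 nt and 1 with at least 2 reads, against 7. PC names with a site were 1.22% when at least 2 reads were required, against 3.02%. Of 4 alternatives chosen after seeing the data, 1 moved its value: without fractional reads the share of PC sites with at least 2 reads was 45.2%, against 28.0%. No paired analysis was possible because there was 1 degradome library and no result came from a test. Exactly 1 read was found at 40 of the 111 sites and less than 1 read at 17, and at this depth such sites could not be ordered among themselves. The cause of each shift was not tested.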
